A study of Mus musculus with 10 samples.

Results

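The genes described here are the adenylate cyclases Adcy3, Adcy5, Adcy6, Adcy8 and Adcy9 and the cAMP effectors Rapgef3, Rapgef4, Prkaca, Prkacb and Creb1, 10 genes chosen by name and not by their values. A row of the array table named 9 of them, each alone and each in 1 row, among 32814 rows that name at least 1 gene. Rapgef4 was not analysed here. RNA came from islets of male C57BL/6 mice (C57Bl/6J in the methods) aged 10 weeks, 5 samples at ZT8 and 5 at ZT20, where ZT counts hours from lights on, with 1 array per sample. The methods also name an acclimatisation period before killing and do not say whether the 10 weeks include it. All mice were killed at the same clock time, and the ZT20 group had been housed under an inverted light cycle, so that the time of day and the housing cannot be told apart. Islets were digested with collagenase, picked by hand and cultured for 24 h, although another label calls the culture overnight, and the titles write CT8 and CT20 for the groups. The labels call the samples biological replicates, and p-values measure the spread between these samples. Every value below is a log2 signal, normalised before deposition, and a difference is ZT8 minus ZT20, so that 1 unit is a doubling.

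Adenylate cyclases make cAMP from ATP when a receptor such as that for GLP-1 activates the stimulatory G protein, and in the beta cell cAMP amplifies the insulin secretion that glucose has started. Cyclic AMP then acts by separate arms. It binds Epac proteins, exchange factors that load the small GTPase Rap, and it frees the catalytic subunits of protein kinase A (PKA), which phosphorylate exocytotic proteins in the cytosol and the transcription factor CREB in the nucleus. The comparison of ZT8 with ZT20 asks whether the transcripts of this machinery differ between the rest and activity phases of the mouse day.

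No difference between ZT8 and ZT20 was found for any of the 9 genes. No member passed an adjusted p of 0.05 in limma in either direction, where 0.744% of all tested rows did (186 rows higher and 58 lower at ZT8). That total of 244 rows was unstable: leaving out 1 array gave 1 to 427, with 1 without ZT8 replicate 2, 3 or 4 or ZT20 replicate 4 and 427 without ZT20 replicate 1, and the methods' t-test called 2. No member reached an unadjusted p of 0.05 either, where 18.5% of rows did, and none did by the methods' t-test, the form for unequal variances, where 16.6% of rows did. The arrays of both groups overlapped for all 9 members, whereas they did not overlap for 5.92% of rows. Differences ran from -0.10 for Adcy8 to 0.097 for Prkacb, with a median of 0.00062 beside a median of -0.032 over all tested rows. Of the members, 5 differences were above 0 and 4 below, which became 6 above 0 with arrays centred on their medians and 3 above 0 after quantile normalisation. The 95% confidence interval of every member lay between -0.22 and 0.25, so that no interval held a change as large as 1.2-fold in the fit of all 10 arrays. The widest bound corresponded to 1.19-fold, for Prkacb, and the widest under any alternative to 1.25-fold. These intervals are for 1 gene at a time, on normalised array signals, and smaller differences are not settled by 5 arrays a group.

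**Figure D1:**
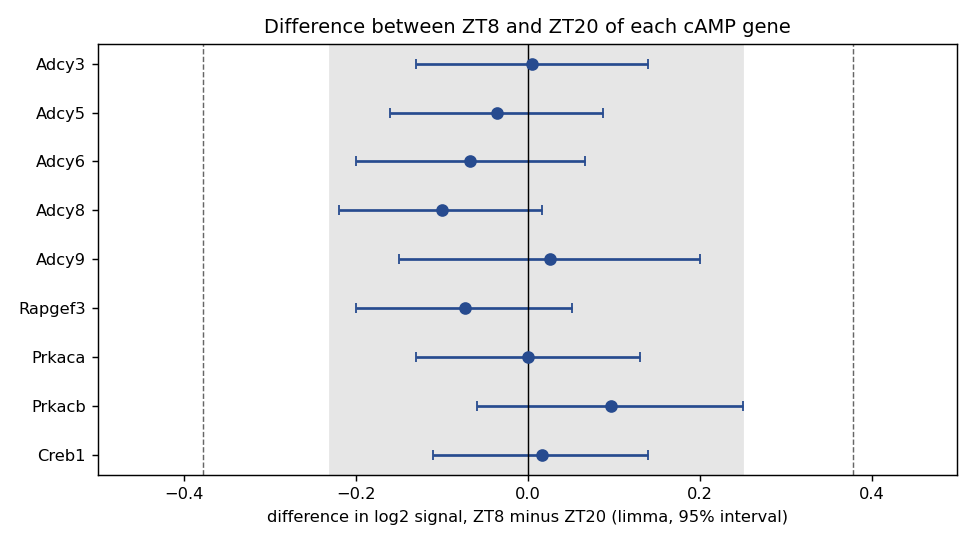
Difference in log2 signal, ZT8 minus ZT20, of each of the 9 measured genes, with points for the limma estimate and bars for its 95% confidence interval. The grey band holds the central 95% of differences over all tested rows (-0.23 to 0.25), dashed lines mark 1.3-fold, and every interval crosses 0 and stays within the dashed lines.

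The promoter of Prkaca is shown because it was the only member's window that held the letters of an E-box (CACGTG), through which the CLOCK and BMAL1 proteins of the circadian clock bind DNA. RefSeq windows of 300 bases, from 250 before to 50 after a transcript's start (GRCm38.p6), were present for 8 of the 10 genes, with 12 windows in all and none used here for Adcy6 and Adcy8. The 4 motifs were searched on both strands. An E-box stood in 1 of the 12 windows and in 7.15% of all 32851 windows. The whole cAMP response element, TGACGTCA, was in none of the 12 and in 1.79% of all windows, while its core letters TGACG, which the whole element contains, were in 4 of the 12 and in 20.8% of all. The D-box TTATGTAA, read by clock output factors, was in none of the 12 and in 0.938% of all. The Prkaca window lies at chr8:83972728-83973027 on the plus strand, and its capitals mark the E-box and both copies of the core letters, which read CGTCA on this strand.

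Prkaca: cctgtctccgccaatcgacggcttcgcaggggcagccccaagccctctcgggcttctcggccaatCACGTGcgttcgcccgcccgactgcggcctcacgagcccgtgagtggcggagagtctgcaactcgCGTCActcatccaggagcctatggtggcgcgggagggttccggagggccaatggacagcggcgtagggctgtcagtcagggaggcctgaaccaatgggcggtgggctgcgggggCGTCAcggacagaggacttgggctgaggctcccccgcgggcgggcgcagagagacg

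The other members with the core letters of the cAMP response element, in capitals, are shown by the bases around them, all on the minus strand. The letters began 102 bases upstream of the start in Prkacb (chr3:146813032-146813060), 191 upstream in Rapgef3 (chr15:97767841-97767869) and 24 upstream in Adcy9 (chr16:4420506-4420534). Prkacb and Prkaca also had windows at other starts, which held none of the motifs.
Prkacb: ggggcttgaccgCGTCActtccggcgcgc
Rapgef3: gcttgaacccacTGACGtagtctcgggta
Adcy9: cggacccggcggTGACGtgcgcgggccgc
These matches describe letters in a window and say nothing of binding.

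Among the cyclases, Adcy6 and Adcy9 had the highest signals and Adcy8 the lowest. Adcy6, a cyclase that calcium inhibits, read 8.85, 8.86, 8.93, 8.95 and 9.14 in ZT8 replicates 1 to 5 and 8.89, 9.03, 9.03, 9.07 and 9.06 in ZT20 replicates 1 to 5. The highest of all was a ZT8 array, although the other ZT8 arrays lay below all ZT20 arrays but replicate 1. The difference of -0.067 ± 0.061 (SE) had a 95% interval of -0.20 to 0.066 (limma adjusted p = 0.56). Adcy9, a widely expressed cyclase that forskolin activates only weakly, read 8.59, 8.99, 8.85, 8.99 and 9.02 at ZT8 and 8.85, 8.89, 8.86, 8.72 and 9.0 at ZT20. One array in each group was low, replicate 1 at ZT8 and replicate 4 at ZT20, and the range of 0.43 over the 10 arrays was the largest of the 9 members. Its difference was 0.026 ± 0.083 (SE, interval -0.15 to 0.20, limma adjusted p = 0.89).

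Adcy5, the calcium-inhibited relative of Adcy6, read 6.53, 6.48, 6.56, 6.48 and 6.41 at ZT8 and 6.56, 6.70, 6.50, 6.45 and 6.44 at ZT20. ZT20 replicate 2 stood highest, and the remaining arrays of both groups shared 1 range. The difference was -0.036 ± 0.058 (SE, interval -0.16 to 0.088, limma adjusted p = 0.76). Adcy3, known as the cyclase of olfactory cilia and of primary cilia, read 7.10, 6.95, 7.15, 7.06 and 7.03 at ZT8 and 7.03, 7.20, 6.93, 7.13 and 6.96 at ZT20. The groups covered nearly the same values, with means of 7.06 and 7.05 and a difference of 0.0049 ± 0.062 (SE, interval -0.13 to 0.14, limma adjusted p = 0.97).

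Adcy8, a cyclase that calcium and calmodulin activate, had the lowest p of the members. Its row read 4.95, 4.94, 5.06, 4.96 and 4.98 at ZT8 and 5.12, 5.08, 4.95, 5.21 and 5.03 at ZT20. ZT20 arrays were on the whole higher, but ZT20 replicate 3 fell among the ZT8 arrays and ZT8 replicate 3 among the ZT20 arrays. The difference of -0.10 ± 0.055 (SE, interval -0.22 to 0.017) had an unadjusted p of 0.087 and an adjusted p of 0.34 in limma, and the exact two-sided permutation test gave p = 0.087, where 0.0079 is the smallest that 5 against 5 arrays can give. The row was dim: its mean of 5.03 lay above 31.0% of tested rows and above 14 of the 23 background control rows, whose means ran from 2.14 to 7.07. Those control rows were themselves higher at ZT20, with array means of 4.24 to 4.33 against 4.07 to 4.2 at ZT8. The part of this background in the difference of Adcy8 was not tested. The rows of Adcy3, Adcy5 and Rapgef3 also lay below the highest background row.

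Rapgef3, which encodes Epac1, read 6.98, 6.97, 7.02, 6.94 and 7.14 at ZT8 and 6.98, 7.19, 7.04, 7.17 and 7.06 at ZT20. The low ends of the groups met, and ZT8 replicate 5 lay among the higher ZT20 arrays. The difference was -0.073 ± 0.057 (SE, interval -0.20 to 0.051, limma adjusted p = 0.49). Epac2, the product of Rapgef4, is the form best known from the beta cell, and it has no value here.

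The catalytic subunits of PKA were among the brighter rows. Prkaca, encoding the alpha form, read 9.52, 9.73, 9.77, 9.69 and 9.81 at ZT8 and 9.65, 9.73, 9.75, 9.62 and 9.76 at ZT20. Both group means were 9.70, with a difference of 0.00062 ± 0.059 (SE, interval -0.13 to 0.13, limma adjusted p = 1.0). Prkacb, encoding the beta form, read 10.12, 10.49, 10.37, 10.42 and 10.47 at ZT8 and 10.32, 10.30, 10.34, 10.12 and 10.31 at ZT20. Of the ZT8 arrays, 4 lay above every ZT20 array and the remaining one, replicate 1, was level with the lowest, ZT20 replicate 4. The difference was 0.097 ± 0.072 (SE, interval -0.059 to 0.25, limma adjusted p = 0.47), the largest of the members above 0. Without ZT8 replicate 1 it was 0.16, and the adjusted p of 0.15 was the lowest of any member under any alternative. Creb1, encoding the transcription factor that PKA phosphorylates, read 10.39, 10.46, 10.54, 10.44 and 10.54 at ZT8 and 10.44, 10.32, 10.41, 10.50 and 10.60 at ZT20. Its lowest and highest arrays were both at ZT20, and the difference was 0.017 ± 0.058 (SE, interval -0.11 to 0.14, limma adjusted p = 0.89). Over the 9 members the exact permutation p ran from 0.087 to 1.0.

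**Figure D2:**
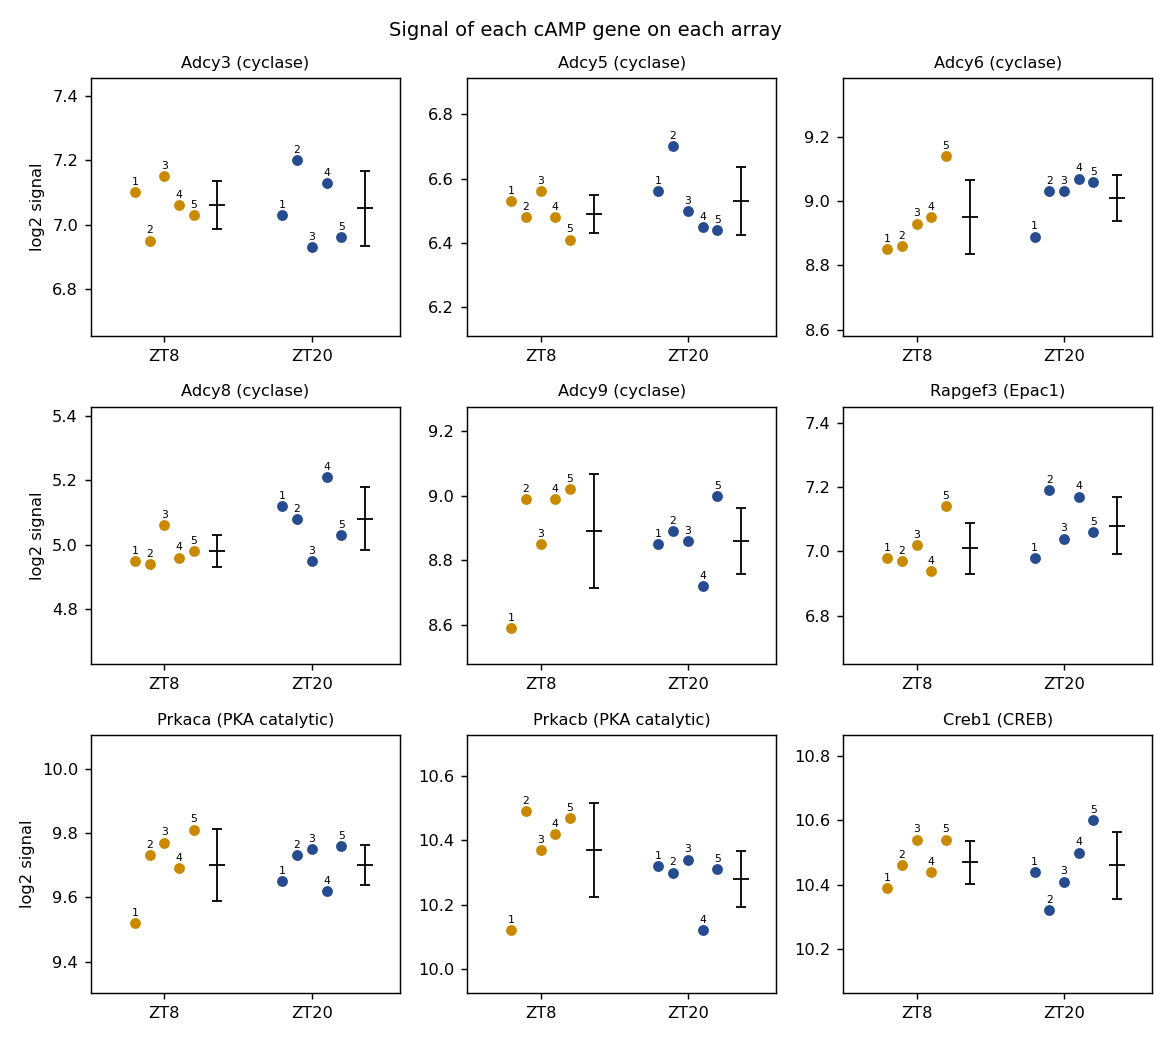
Log2 signal of each measured gene on each array, with ZT8 in ochre and ZT20 in blue, replicate numbers beside the points, and the group mean ± SD (n = 5) as a black bar. Each panel spans the same height of log2 signal, the groups overlap in all 9 panels, and ZT8 replicate 1 and ZT20 replicate 4 are low for Adcy9, Prkaca and Prkacb.

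Ordered by mean row signal, which depends on the probes of a row as well as on its RNA, the members ran Creb1 (10.46), Prkacb (10.33), Prkaca (9.70), Adcy6 (8.98), Adcy9 (8.88), Adcy3 (7.05), Rapgef3 (7.05), Adcy5 (6.51) and Adcy8 (5.03). The upper row of each pair of neighbours was above the lower in all 10 arrays for 5 of the 8 pairs. Creb1 was above Prkacb in 9 of 10 arrays (mean gap 0.14), Adcy6 above Adcy9 in 8 (0.11) and Adcy3 above Rapgef3 in 5 (0.0062). The order within these pairs thus varied between arrays and was not tested. Creb1, Prkacb and Prkaca lay above 96.6%, 96.1% and 93.4% of tested rows, and Adcy6 and Adcy9 above 88.1% and 87.2%.

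The spread of Prkacb over the arrays followed that of the mean of beta cell markers. The mean of 9 beta cell marker rows (Ins2, Iapp, Mafa, Slc2a2, Pdx1, Nkx6-1, G6pc2, Ucn3 and Slc30a8) was 10.54, 11.01, 10.90, 10.99 and 11.02 at ZT8 and 10.83, 10.84, 10.93, 10.62 and 10.83 at ZT20. It was lowest on ZT8 replicate 1 and ZT20 replicate 4, the same arrays that were lowest for Prkacb, Prkaca and Adcy9. The 9 rows varied unequally. The SD at ZT8 and ZT20 was 0.445 and 0.293 for Slc2a2 and 0.396 and 0.2 for Ucn3. It was 0.0499 and 0.0413 for Ins2 and 0.0513 and 0.0457 for Iapp, and the rest lay between. Rows of large spread therefore weigh most in the marker mean. How many of all rows follow this mean as closely as Prkacb was not counted. Over the 10 arrays the Pearson correlation of Prkacb with this mean was r = 0.98 (permutation p = 1e-05, the smallest that 100000 resamples can give, and 0.0009 after Benjamini-Hochberg adjustment over 90 relations of the 9 members with 10 marker lists). Spearman's rho was 0.93 (permutation p = 0.00031, adjusted 0.028). Without those 2 arrays, which lay farthest from the median of the marker mean, r was 0.94, and with group means removed it was 0.99. This was the only relation of the 90 to pass the adjusted threshold by either measure.

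The remaining members followed the beta cell marker mean less closely or not at all. Adcy9 gave r = 0.89 (permutation p = 0.0012, adjusted 0.054) and rho = 0.70 (permutation p = 0.031, adjusted 0.35), and r fell to 0.54 without the 2 arrays, on which the relation therefore rested in part. Prkaca gave r = 0.84 (permutation p = 0.0038, adjusted 0.086) and rho = 0.64 (permutation p = 0.054, adjusted 0.41), with r = 0.33 without them. For Creb1 the values were r = 0.19 and rho = 0.16 (permutation p = 0.60 and 0.66, adjusted 0.79 and 0.86), with r = 0.08 without the 2 arrays. The other 5 members gave r from -0.45 for Adcy8 to 0.19 for Adcy6, with adjusted permutation p from 0.57 to 0.83, and without the 2 arrays r was -0.82 for Adcy8 and 0.05 for Adcy6. These relations were looked at after the low arrays had been seen. In whole islets, fewer cells of a type and less RNA per cell cannot be told apart. With both arrays left out, a setting added after the data were seen, the difference of Prkacb was 0.12 (limma adjusted p = 0.23) and that of Adcy9 0.063 (adjusted p = 0.54).

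**Figure D3:**
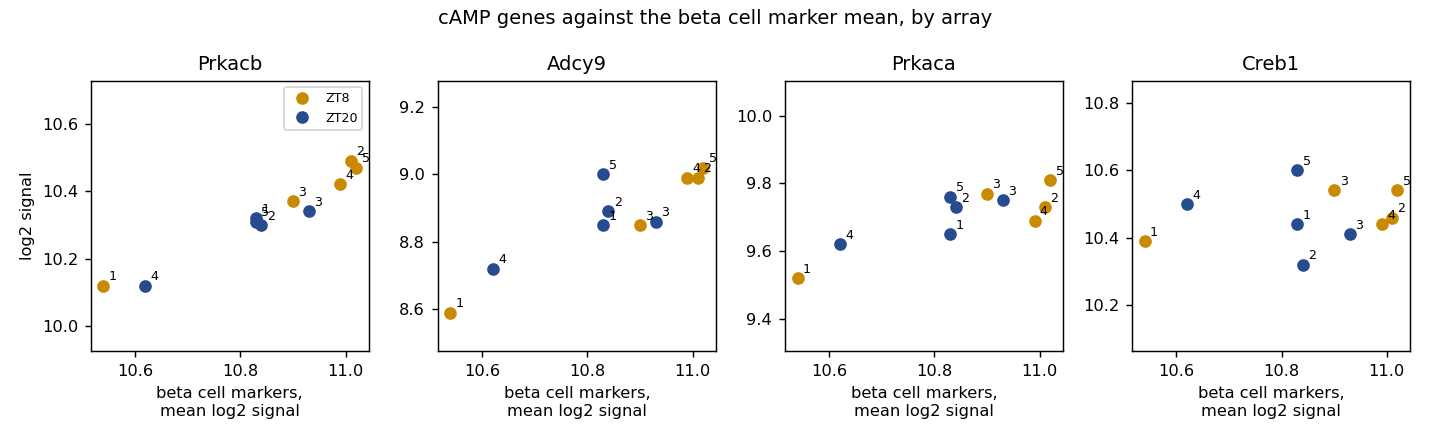
Log2 signal of Prkacb, Adcy9, Prkaca and Creb1 against the mean log2 signal of 9 beta cell markers on the same array, with ZT8 in ochre, ZT20 in blue and replicate numbers beside the points. Prkacb follows the marker mean over all 10 arrays (r = 0.98), Creb1 does not (r = 0.19), and ZT8 replicate 1 and ZT20 replicate 4 lie at the left of each panel.

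Markers of the other cells in the islet preparation varied between arrays too. Ins2, Gcg, Sst and Ppy, the hormone genes of the beta, alpha, delta and PP cells, had mean signals of 13.18, 12.09, 12.60 and 13.33, so that the labelled tissue showed its defining markers. Rows for 8 of 9 acinar markers averaged 10.99 to 12.32 over the ZT8 arrays and 11 to 12.21 over the ZT20 arrays, and Ctrb1, a digestive enzyme gene of acinar cells, had a mean signal of 13.47. The 6 endothelial markers averaged 8.21 to 8.64 at ZT8 and 8.38 to 8.74 at ZT20, and the 6 markers of stellate cells and fibroblasts 6.98 to 7.65 and 7.19 to 7.76. Both of these lists were highest within their group on ZT8 replicate 1 and ZT20 replicate 4. Outside the beta cell list, 3 relations had r beyond 0.70 in size after rounding, and none passed after adjustment. Prkacb gave r = -0.85 with the endothelial markers (permutation p = 0.0027, adjusted 0.082) and rho = -0.78 (permutation p = 0.011, adjusted 0.35). Without the 2 arrays farthest from the median of the endothelial mean, ZT8 replicate 2 and ZT20 replicate 4, r was -0.69. With the duct markers, Prkaca gave r = -0.76 (permutation p = 0.0099, adjusted 0.18) and rho = -0.53 (permutation p = 0.12, adjusted 0.48), and Adcy9 r = -0.73 (permutation p = 0.016, adjusted 0.23) and rho = -0.73 (permutation p = 0.020, adjusted 0.35). The 2 arrays farthest from the median of the duct mean were ZT8 replicate 1 and ZT20 replicate 1. Without them r was -0.32 and -0.42, so that both duct relations rested in part on those arrays. At 0.70 in size after rounding stood Prkacb with the markers of stellate cells and fibroblasts (r = -0.70, rho = -0.76). The same size was seen for Adcy6 and Rapgef3 with the PP cell markers (r = 0.70 each, rho = 0.65 and 0.72). The adjusted permutation p of r was 0.23 for each. The part of cell makeup in the members' values was not tested beyond these relations.

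The rest of the cAMP pathway gave no called gene either. Of 114 genes in 10 lists, 104 had a row that names them alone, and 0 of these passed an adjusted p of 0.05 in limma (lowest 0.14), nor did any by the methods' t-test after adjustment. At an unadjusted p under 0.05 stood 7 genes higher at ZT8, where 8.37% of all rows were, and 6 genes lower, where 10.2% of rows were. Together these are 12.5% of the 104 genes, below the 18.5% of all rows. The median difference of the 104 genes was -0.015.

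**Figure D4:**
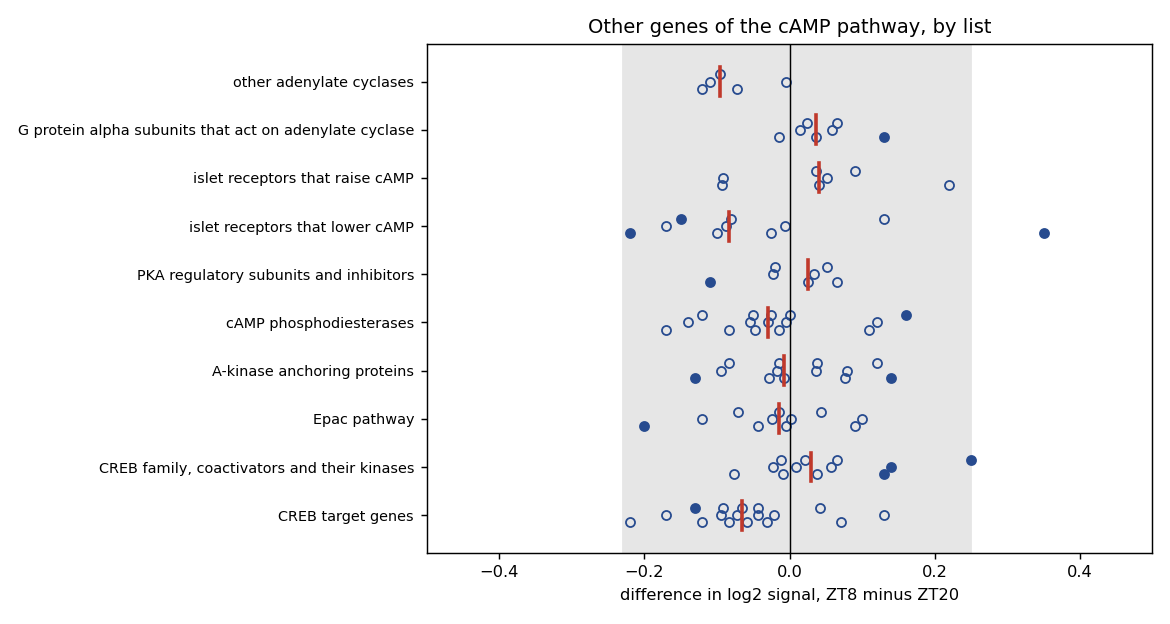
Difference in log2 signal, ZT8 minus ZT20, of 104 further genes of the cAMP pathway in 10 lists, with a point per gene, filled at an unadjusted limma p under 0.05, and a red bar at each list's median. The grey band holds the central 95% of all tested rows (-0.23 to 0.25), and list medians lie between -0.096 and 0.041.

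Upstream of the cyclases, no receptor or G protein passed the test. Glp1r, the GLP-1 receptor, had a signal of 12.66 ± 0.183 at ZT8 and 12.62 ± 0.107 at ZT20 (SD, n = 5), with a difference of 0.041 (limma adjusted p = 0.81). Gipr, the receptor of the incretin GIP, differed by 0.090 (limma adjusted p = 0.72), and Adcyap1r1, a receptor of the neuropeptide PACAP, by -0.092 (adjusted p = 0.42). The 7 measured receptors that raise cAMP had a median of 0.041. Among 10 measured receptors that lower cAMP the median was -0.084, and 3 had an unadjusted p under 0.05, where 18.5% of all rows did, 1 of them higher and 2 lower at ZT8. Of these, Galr1, a galanin receptor, gave the largest difference of the pathway at 0.35 (interval 0.019 to 0.69, limma adjusted p = 0.25), and its arrays overlapped, with 9.10 ± 0.328 at ZT8 and 8.74 ± 0.260 at ZT20 (SD, n = 5). Sstr1, a somatostatin receptor named after its values were seen, differed by -0.22 (interval -0.39 to -0.057, limma adjusted p = 0.16), from a dim row with a mean of 5.20. Sstr3, the brightest row of a somatostatin receptor, differed by -0.0069 (adjusted p = 0.97).

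Npy1r, a neuropeptide Y receptor that couples to the inhibitory G protein, read 3.66, 3.67, 3.75, 3.69 and 3.59 at ZT8 and 3.80, 3.90, 3.81, 3.87 and 3.75 at ZT20. The groups did not overlap, although each had an array at 3.75 after rounding, and the difference was -0.15 (limma adjusted p = 0.14). This row was dimmer than that of Adcy8, in the range of the background rows that were also higher at ZT20. Of the 7 alpha subunits of G proteins, 1 had a difference below 0, which became 0 with median centring and 5 after quantile normalisation. Of all rows, 61.9%, 43.8% and 54.6% were below 0 in these settings. The median of the 7 was 0.036. Gnai3, an inhibitory subunit, differed by 0.13 (limma adjusted p = 0.25), and Gnai2 and Gnao1, the brightest rows of the list, by 0.066 and 0.058 (adjusted p = 0.52 and 0.63). The 5 remaining cyclases had differences below 0, as 61.9% of all rows did, and 4 of 5 stayed below 0 with median centring and with quantile normalisation, where 43.8% and 54.6% of rows did. Their median was -0.096. The rows of Adcy1, Adcy2, Adcy7 and Adcy10, with means of 5.58, 4.90, 6.80 and 3.88, lay in the range of the background rows. Those background rows were also higher at ZT20, and their part in these differences was not tested. The row of Adcy4, with a mean of 7.19, lay above that range. Adcy1, activated by calcium and calmodulin, gave -0.096, Adcy4 -0.12 and Adcy7 -0.11 (limma adjusted p = 0.32, 0.40 and 0.35).

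Downstream, the regulatory partners of PKA had a median difference of 0.025. Prkar1a and Prkar2b, regulatory subunits that hold the kinase inactive, differed by 0.025 and 0.065 (limma adjusted p = 0.80 and 0.55). Pkig, an inhibitor of the catalytic subunit, read 8.23, 8.20, 8.25, 8.24 and 8.24 at ZT8 and 8.25, 8.42, 8.37, 8.28 and 8.38 at ZT20. The groups did not overlap, although each had an array at 8.25 after rounding, with a difference of -0.11 (limma adjusted p = 0.23). The 15 measured phosphodiesterases, which degrade cAMP, had a median of -0.030. Pde3b, an insulin-regulated form that limits cAMP in the beta cell, differed by 0.16 (interval 0.018 to 0.30, limma adjusted p = 0.22) and Pde8a by 0.12 (adjusted p = 0.35). The 13 anchoring proteins that place PKA in the cell had a median of -0.0076. Among them Akap4 differed by -0.13, Akap8 by -0.017 and Akap11 by 0.079 (limma adjusted p = 0.23, 0.89 and 0.38). The Akap4 row was dim, with a mean of 4.06, in the range of the background rows that were also higher at ZT20.

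In the Epac arm, Rap2a, a small GTPase of the Rap family, read 8.57, 8.56, 8.55, 8.38 and 8.39 at ZT8 and 8.58, 8.77, 8.65, 8.84 and 8.63 at ZT20. All ZT20 arrays lay above all ZT8 arrays, and the difference of -0.20 ± 0.063 (SE, interval -0.34 to -0.064) had an adjusted p of 0.14 in limma. Rap1b and Rap1gap2, a Rap GTPase and an activator of Rap hydrolysis, differed by 0.043 and -0.0050 (limma adjusted p = 0.62 and 0.97). Groups that do not overlap were found for 4 of the 104 genes, Npy1r, Pkig, Rap2a and Akap9, where 5.92% of all rows had them. Akap9, named because it falls in this count and not by the rule, differed by 0.077 (limma adjusted p = 0.37).

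Of the CREB family, its coactivators and their kinases, 3 of 12 measured genes had an unadjusted p under 0.05, where 18.5% of all rows did in either direction. All 3 had a positive difference, as 8.37% of all rows had at this threshold. Crebbp, the coactivator CBP, had signals of 10.16 ± 0.0364 at ZT8 and 10.03 ± 0.0669 at ZT20 (SD, n = 5) and differed by 0.14 (interval 0.035 to 0.24, limma adjusted p = 0.16). The other two, named after their values were seen, were Ep300, the relative of CBP, at 0.13 and Crem, a CREB relative with repressor isoforms, at 0.25 (limma adjusted p = 0.26 and 0.20). Creb3l2, a membrane-bound factor of the endoplasmic reticulum, differed by 0.057 (adjusted p = 0.59). CREB target genes were below 0 in 14 of 17 measured cases, beside 61.9% of all rows, with a median of -0.066. The count was 10 with median centring and 12 after quantile normalisation, beside 43.8% and 54.6% of all rows. Irs2, an adaptor of insulin signalling, differed by -0.092, Bdnf, a neurotrophin, by -0.13 and Ldha, lactate dehydrogenase A, by -0.22 (limma adjusted p = 0.33, 0.22 and 0.66). The Bdnf row was dim, with a mean of 5.38, in the range of the background rows that were also higher at ZT20.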

How the data were processed

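The log2 signals were made by the authors before deposition, by GCRMA according to the heading of a supplementary table. Affymetrix Expression Console stands in the submitters' processing notes. The build of the array's annotation was not given in the sources used here. Another Affymetrix array stands in the methods than that of the deposited rows, which are transcript clusters. RNA was amplified and labelled with the WT Pico kit. Of 72688 rows, 65956 were transcripts and 32814 named at least 1 gene in GEO's platform annotation, with symbols updated through RefSeq gene numbers. Values lay between 1.66 and 13.7, and array medians between 5.33 and 5.48.

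The groups were compared with limma 3.58.1 (lmFit, eBayes) in R 4.3.3, two-sided, with Benjamini-Hochberg adjustment over the 32814 rows and a threshold of 0.05. A gene was read from the row that names it alone, the brightest where there were several. Single genes were also tested by exact permutation of the 10 arrays with scipy 1.17.1, numpy 2.4.6 and pandas 2.3.3 in Python 3.11.15. Figures were drawn with matplotlib 3.10.9. The limma procedure was tested on simulated data. The number of arrays limits the precision.

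The 10 genes and the gene lists were chosen with earlier results of these data known. Named are all members and, from each pathway list with no gene past the test, the gene with the lowest unadjusted p and the 2 brightest, and from each marker list the brightest gene. The brightest duct, leukocyte and red blood cell markers (Krt19, Cd68, Slc4a1) and endothelial and stellate ones (Cdh5, Pdgfrb) differed by 0.30, -0.16, -0.082, -0.074 and -0.14, none past the test. The mean of the red blood cell list was 5.64 at ZT8 and 5.75 at ZT20 (exact two-sided permutation p = 0.024, the only 1 of 10 lists under 0.05). Its 3 measured rows, of 5 genes, were dim, with means of 5.18 to 6.42. They lay in the range of the background rows that were also higher at ZT20, and the part of this background was not tested. The means of the duct, leukocyte, alpha, delta and PP cell lists differed by 0.07, -0.11, 0.031, -0.014 and -0.037. Alternatives were other scalings, other row filters, a trended and robust prior, array weights, a block for the replicate number, the methods' t-test, an equal-variance test and each array left out. Promoter windows were taken from RefSeq (GRCm38.p6).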

Additional observations from a re-analysis of the deposited data

Results flagged for a closer look

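In 2 of 18 groups of 5 arrays, 1 array lay apart from the others by Dixon's ratio of the gap to the range (critical value 0.71), where chance gives about 1 in 20. Adcy6 was 8.89 in ZT20 replicate 1 against 9.03 to 9.07 in the other ZT20 arrays (ratio 0.769). Prkacb was 10.12 in ZT20 replicate 4 against 10.30 to 10.34 in the others (ratio 0.817), and the beta cell marker mean was lowest within the group on the same array, at 10.62.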

How the results depend on the processing

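No member and no gene of the cAMP lists passed the test under any of the 21 alternatives, among them each array left out in turn. The lowest adjusted p of a member was 0.15. Adcy6, Rapgef3 and Prkacb kept their sign under all 21, and Adcy8 under all that could be run for it, since its row was not among those above the median level. The sign turned in 22 of 105 values of the other 5 members: Adcy5 to 0.012 with arrays centred on their medians, 0.0014 after quantile normalisation and 0.0017 with array weights, and Adcy9, Prkaca and Creb1 to -0.023, -0.069 and -0.084 after quantile normalisation. With 1 array left out, differences ran from -0.025 to 0.043 for Adcy3, -0.060 to 0.0058 for Adcy5, -0.011 to 0.099 for Adcy9, -0.025 to 0.047 for Prkaca and -0.017 to 0.053 for Creb1. The cause was not tested.

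The number of rows called over the array, 244, was far less stable. It was 603 after median centring, 52 after quantile normalisation, 467 among rows above the median level, 1 over all transcript rows, 516 with a trended and robust prior, 830 with array weights, 2 by the methods' t-test and 12 by the equal-variance test, all at an adjusted p under 0.05. Leaving out 1 array gave 1 to 427 calls, with 1 without ZT8 replicate 2, 3 or 4 or ZT20 replicate 4, 3 without ZT20 replicate 2, 5 without ZT20 replicate 5, 7 without ZT8 replicate 5, 54 without ZT8 replicate 1 or ZT20 replicate 3, and 427 without ZT20 replicate 1. Without both arrays of low beta cell markers, an alternative added after the data were seen, 4 rows were called. The replicate number as a block gave 51 calls. Same-numbered arrays deviated together in 3 of 5 cases (correlations -0.13 to 0.35), and 3 of 5 numbers correlated best with their own. Whether the numbers pair the arrays was not tested, and the main fit does not pair them. The block changed no member's call. Each member had 1 row, so the mean of its rows gave no separate value. Dim rows such as that of Adcy8 are limited by the background signal.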
